A study of Mus musculus with 12 samples.

Results

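The macrophage and antigen presentation genes examined here are 40 of the 24537 genes in a deposited RNA-Seq table of mouse liver. They were taken by symbol and all 40 were found, 7 of Kupffer cell identity, 7 of macrophages and other myeloid cells, 5 of leukocyte signalling, 8 of the MHC class II pathway, 8 of the MHC class I pathway and 5 of lymphocytes. The livers came from 12 male C57Bl/6J mice that were 6 weeks old at the start, housed singly, and either fed ad libitum (Con) or given 30% less food than the ad libitum mice ate (CR, caloric restriction). Con and CR mice were taken at day 25 or at day 30 of the intervention, with 3 mice in each of the 4 groups. By the study's methods, CR mice ate a fortified version of the Con diet, given daily at a fixed time. Diet composition and meal time therefore cannot be told apart from the amount of food. The study's mice were also labelled with heavy water before they were taken. No transgene, deletion or drug was part of these groups. The comparison asks how hepatic mRNA levels differed under CR on either side of an interval in which the study examined protein synthesis. Mice are numbered 1 to 3 within a group from their labels, except Con mice at day 30, which are numbered 10 to 12 from their columns because their labels do not tell them apart.

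Kupffer cells are the resident macrophages of the liver. They line the sinusoids, clear particles, bacteria and old red cells from portal blood, and carry scavenger and complement receptors by which they can be recognised. Antigen presentation uses a pair of routes. MHC class I molecules, made by nearly all nucleated cells, hepatocytes included, show peptides of the cell's own proteins to CD8 T cells, after TAP has pumped the peptides into the endoplasmic reticulum. MHC class II molecules, made mainly by macrophages, dendritic cells and B cells, show peptides of engulfed proteins to CD4 T cells, after the invariant chain CD74 has been cut away by cathepsins. Transcription of both routes uses a DNA-bound complex that contains RFX5 and recruits a coactivator, CIITA for class II and NLRC5 for class I genes.

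Levels are FPKM, in which reads on a gene's exons are divided by their length and by library depth, so that genes can be compared with each other. Differences were tested on log2(FPKM + 1) with limma across the 10593 genes that reached 1 FPKM in 3 or more libraries, and a gene passed at a Benjamini-Hochberg adjusted p under 0.1. The added 1 makes the log2 fold change of a low gene smaller than its ratio of FPKM. Of the 40 genes, 29 met the filter and 11 did not. Libraries held between 15748918 and 23345268 reads, of which 78.1% to 84.3% lay on exons. For 1 gene, the smallest p that 3 mice against 3 allow in an exact permutation is 0.1, so each test borrows the spread of other genes. In whole liver, fewer cells of a type and less RNA per cell cannot be told apart.

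The highest member was B2m, the light chain shared by class I molecules, at a mean of 1282 FPKM over the 12 mice. H2-Q10, a secreted class I molecule of hepatocytes, followed at 767 FPKM. The classical class I heavy chains H2-K1 and H2-D1 had means of 427 and 157 FPKM. Class II and macrophage genes lay far below these. Cd74 averaged 22.6 FPKM, Cd5l 12.8 FPKM, Clec4f 12.3 FPKM and Lyz2 9.49 FPKM. Lymphocyte genes averaged from 0.721 FPKM in Ccl5 down to the lowest of all members, Cd8a, at a mean of 0.0297 FPKM.

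Promoter sequences are shown for the 3 members that fell in an antigen presentation list and whose RefSeq promoter (GRCm38.p6) was at hand with bases free of exons, because transcription in these pathways is known to use short elements near the start. Each line gives the bases before the transcription start, read 5′ to 3′ on the gene's strand. Capitals mark GATTGG, the core of the Y box, or GAAANNGAA, the core of an interferon-stimulated response element, searched on both strands. The H2-Aa stretch is chr17:34287824-34288073, minus strand, that of B2m is chr2:122147437-122147685, plus strand, and that of Ctss is chr3:95526536-95526785, plus strand.
H2-Aa: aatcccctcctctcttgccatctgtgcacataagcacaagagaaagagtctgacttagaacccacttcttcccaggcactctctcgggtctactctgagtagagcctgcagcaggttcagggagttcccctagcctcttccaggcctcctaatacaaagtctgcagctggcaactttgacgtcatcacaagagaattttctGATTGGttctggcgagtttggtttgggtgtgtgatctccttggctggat
B2m: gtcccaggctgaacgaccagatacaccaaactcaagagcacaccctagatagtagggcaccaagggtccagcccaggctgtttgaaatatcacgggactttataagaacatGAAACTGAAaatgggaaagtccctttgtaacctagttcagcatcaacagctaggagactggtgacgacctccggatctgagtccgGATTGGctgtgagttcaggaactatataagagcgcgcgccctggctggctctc
Ctss: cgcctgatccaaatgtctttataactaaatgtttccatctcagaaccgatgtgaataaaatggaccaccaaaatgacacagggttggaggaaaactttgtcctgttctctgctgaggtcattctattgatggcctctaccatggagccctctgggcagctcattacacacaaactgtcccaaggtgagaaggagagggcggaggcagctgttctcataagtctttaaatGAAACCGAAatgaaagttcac

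The Y box letters stood in the H2-Aa and B2m stretches and the response element letters in those of B2m and Ctss. Over 27025 promoters of the same table and length, 15.1% held GATTGG and 7.16% held GAAANNGAA, so a match describes the letters and does not by itself show a site. The table held a promoter for 29 of the 40 members. The letters of an X box core (AGCAAC) and of a PU.1 site (GAGGAAGT), present in 12.25% and 2.44% of all promoters, stood in none of the 3 stretches. Only these exact letters were searched, so their absence does not show that an element is lacking.

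At day 25, 11 of the 29 tested members fell under CR and 0 rose, against 9.34% of all tested genes that fell and 5.60% that rose. This balance over all genes depended on the scaling between libraries. It was 989 lower and 593 higher genes as deposited, 799 and 929 after median-ratio scaling, and 828 and 758 after quantile normalization. Among the members, median-ratio scaling gave 10 lower and 1 higher. The 11 that fell as deposited were the Kupffer cell genes Clec4f, Vsig4 and Cd5l, the myeloid genes Csf1r and Lyz2, the signalling genes Fcer1g, Tyrobp and Laptm5, and Ctss, Tap1 and Nlrc5 of the antigen presentation pathways. Their log2 fold changes ran from -0.93 to -0.45, and 0 of them reached 2-fold on that scale, as 0.642% of all tested genes did in that direction. The median over the 29 members was -0.37, and over all tested genes -0.04. In 15 members every CR mouse lay below every Con mouse, as in 18% of all tested genes, and in 0 members every CR mouse lay above, as in 10.2%. The count of 11 rested on few mice. It was 3 without Con mouse 2, 3 without CR mouse 1 and 5 without CR mouse 3, and 13 with mice paired by number. Same-numbered mice deviated together at day 25, and whether the numbers mark true pairs was not tested.

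At day 30, 7 members fell (24.1%) and 2 rose (6.9%), against 16.4% and 8.33% of all tested genes. Over all genes this was 1737 lower and 882 higher as deposited, 1236 and 1319 after median-ratio scaling, and 1217 and 1252 after quantile normalization, while 6 members fell and 2 rose under median-ratio scaling. The 7 that fell as deposited were Fcer1g, Cd74, H2-Aa, H2-Ab1, B2m, Tap1 and Nlrc5, so that 6 of the 7 were antigen presentation genes. Of the 29 tested members, 5 are class II and 8 are class I pathway genes. Marco and Cd163, both scavenger receptors of macrophages, rose. On the log2(FPKM + 1) scale Tap1 alone passed 2-fold, as 1.28% of all tested genes did in that direction. In FPKM the CR mean of Marco was 215% of its Con mean. In 9 members every CR mouse lay below every Con mouse, as in 24.3% of all tested genes, and in Marco and Cd163 every CR mouse lay above, as in 12.1%. The median over the 29 members was -0.23, and over all tested genes -0.07. The count of 9 was 5 without Con mouse 10, 5 without CR mouse 1 and 5 without CR mouse 3.

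**Figure D1:**
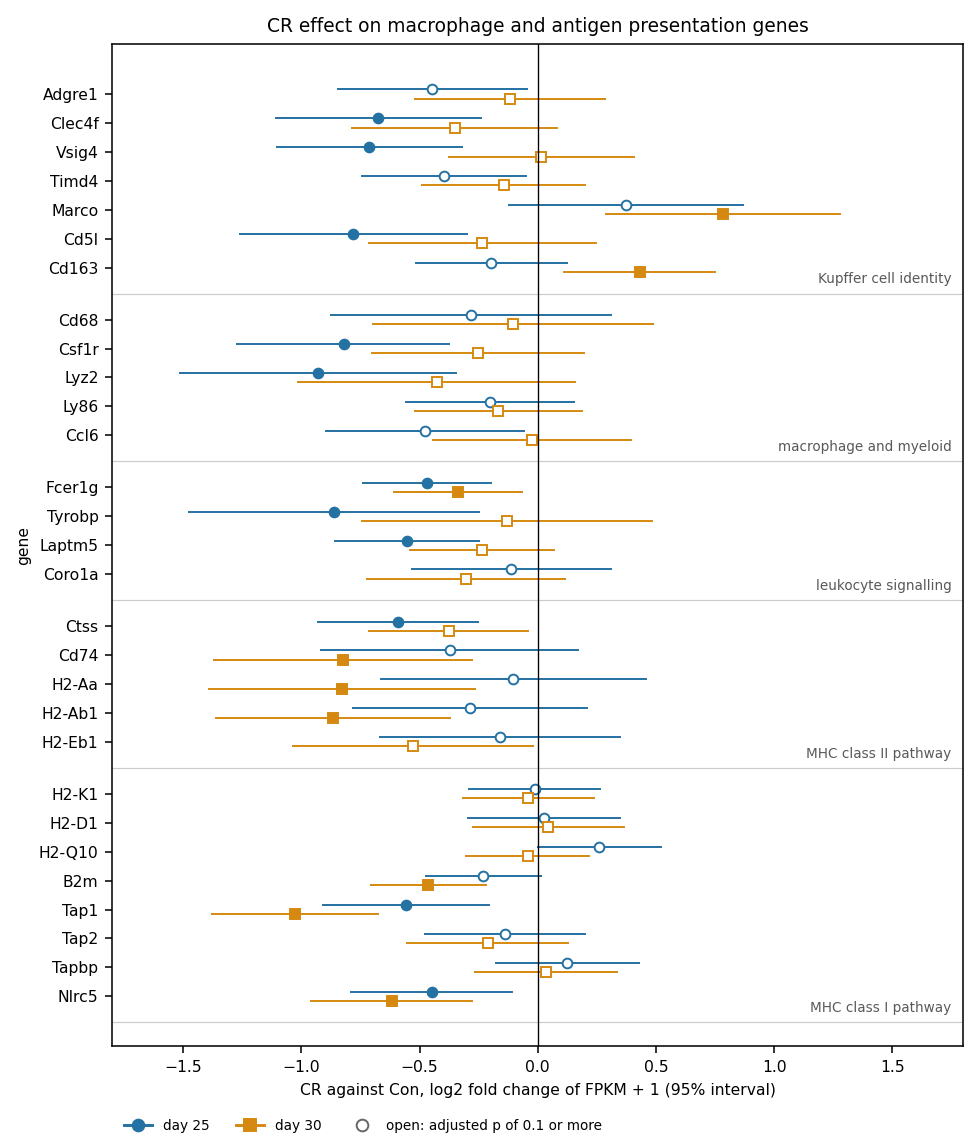
Log2 fold change of FPKM + 1 in CR against Con mice (x axis) for the 29 tested members, grouped by role (y axis), at day 25 (circles) and day 30 (squares), with 95% intervals, 3 mice per group. Filled symbols passed at an adjusted p under 0.1. Filled circles gather among macrophage and signalling genes, filled squares among antigen presentation genes, and Marco and Cd163 are the filled symbols above 0.

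Day 25 and day 30 differences were then compared with each other. In the test of the difference itself 0 of the 29 members passed, as 0.00944% of all tested genes did, and the smallest adjusted p of a member was 0.9995. At an unadjusted p under 0.05 the members were Vsig4 and Cd163, against 3.46% of all tested genes. The macrophage pattern at day 25 and the class II pattern at day 30 were therefore not shown to differ between days. Fcer1g, Nlrc5 and Tap1 passed as lower at both days, and the share of all tested genes that did so was not counted. Over both days, with day as a covariate, 15 members fell and 1 rose, against 26.1% and 14.5% of all tested genes (40.6% in either direction). Over all genes these were 2768 lower and 1536 higher as deposited, 1995 and 2229 after median-ratio scaling, and 1994 and 2040 after quantile normalization. Of the members that passed, 0 fell 2-fold, as 0.84% of all tested genes did. The calls of H2-Aa and Tyrobp over both days were each lost in 13 of 21 alternatives. Timd4, among the 15 that fell, reached 1 FPKM in 3 Con libraries and 1 CR library, so its fall is not independent of the filter. In Ctss, B2m, Tap1 and Nlrc5 every CR mouse lay below every Con mouse of its day at both days, as in 12.2% of all tested genes.

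Among the 7 Kupffer cell genes, 3 fell at day 25. Clec4f (chr6:83644542-83656116, minus strand), a lectin receptor found on Kupffer cells, stood at 12.4, 21.4 and 12.9 FPKM in Con mice 1 to 3 and at 8.54, 9.59 and 9.19 FPKM in CR mice 1 to 3. The groups did not overlap, and Con mouse 2 was far above the rest. The CR mean was 58.5% of the Con mean (log2 fold change -0.67 ± 0.20 (SE), adjusted p = 0.0539). At day 30 Clec4f was 15.6, 15.6 and 10.6 FPKM in Con and 9.74, 12.97 and 9.28 FPKM in CR mice. These groups overlapped, and the difference did not pass (log2 fold change -0.35 ± 0.20 (SE), adjusted p = 0.246).

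Vsig4 (chrX:96247203-96293438, minus strand), a complement receptor by which Kupffer cells catch bacteria, was 6.299, 8.18 and 4.59 FPKM in Con and 2.95, 3.61 and 3.67 FPKM in CR mice at day 25. Every CR mouse lay below every Con mouse (log2 fold change -0.71 ± 0.18 (SE), adjusted p = 0.0295). Vsig4 passed at day 25 under all 22 alternatives that kept the threshold of 0.1 and no fold minimum, but not with a 2-fold minimum. At day 30 it was 5.76, 5.27 and 3.803 FPKM in Con and 4.25, 5.998 and 4.73 FPKM in CR mice, with no separation (log2 fold change 0.02 ± 0.18 (SE), adjusted p = 0.962). Over both days Vsig4 did not pass (log2 fold change -0.35 ± 0.16 (SE), adjusted p = 0.1096). Cd5l (chr3:87357881-87371074, plus strand), a secreted macrophage protein and the highest gene of this list, was 11.6, 21.2 and 14.6 FPKM in Con and 7.604, 10.98 and 7.35 FPKM in CR mice at day 25. The groups did not overlap and the CR mean was 54.7% of the Con mean (log2 fold change -0.78 ± 0.22 (SE), adjusted p = 0.0461). At day 30 Cd5l was 18.5, 13.8 and 11.8 FPKM in Con and 11.3, 14.98 and 10.5 FPKM in CR mice, which overlapped (log2 fold change -0.23 ± 0.22 (SE), adjusted p = 0.492).

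The day 25 calls of Clec4f and Cd5l depended on single mice. Without Con mouse 2 their adjusted p was 0.147 for Clec4f and 0.138 for Cd5l. Without CR mouse 1 it was 0.1401 and 0.134, and without CR mouse 3 0.122 and 0.148.

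Timd4, a receptor for dying cells that marks long-lived Kupffer cells, passed only over both days. It met the filter in 4 libraries, 3 Con and 1 CR, and so through the group in which it was higher. It was 1.105, 1.66 and 0.658 FPKM in Con and 0.654, 0.587 and 0.551 FPKM in CR mice at day 25, and 0.97, 1.36 and 0.861 FPKM in Con and 0.713, 1.07 and 0.812 FPKM in CR mice at day 30. Its groups were apart at day 25, by a narrow gap, and overlapped at day 30 (log2 fold change -0.27 ± 0.11 (SE), adjusted p = 0.0853 over both days), and the call was lost in 11 of 21 alternatives. Adgre1, which encodes the macrophage marker F4/80, was 1.26, 1.99 and 1.09 FPKM in Con and 0.835, 0.907 and 0.602 FPKM in CR mice at day 25, and 1.36, 1.62 and 1.45 FPKM in Con and 0.652, 1.69 and 1.66 FPKM in CR mice at day 30. Its CR mice lay below its Con mice at day 25, yet the difference did not pass (log2 fold change -0.45 ± 0.18 (SE), adjusted p = 0.156). With mice paired by number, Adgre1 and Timd4 passed at day 25. Adgre1 reached 1 FPKM in 6 Con and 2 CR libraries, so neither result is independent of the filter.

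At day 30 0 of the 7 Kupffer cell genes fell, while Marco and Cd163 rose. Marco (chr1:120474538-120505084, minus strand), a scavenger receptor that binds bacteria, was 2.36, 2.099 and 1.602 FPKM in Con and 6.34, 3.4 and 3.29 FPKM in CR mice at day 30. Every CR mouse lay above every Con mouse, and CR mouse 1 was the highest of the 12 (log2 fold change 0.79 ± 0.23 (SE), adjusted p = 0.0349). At day 25 Marco was 1.69, 2.08 and 1.33 FPKM in Con and 1.54, 3.42 and 2.73 FPKM in CR mice, with overlap (log2 fold change 0.37 ± 0.23 (SE), adjusted p = 0.338). Over both days it rose (log2 fold change 0.58 ± 0.17 (SE), adjusted p = 0.0182). Without CR mouse 1 the adjusted p of Marco at day 30 was 0.142, and without Con mouse 12 it was 0.111.

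Cd163 (chr6:124304651-124330527, plus strand), the receptor that takes up haemoglobin bound to haptoglobin, was 2.08, 2.45 and 1.79 FPKM in Con and 3.13, 2.76 and 3.66 FPKM in CR mice at day 30. The groups were apart, with CR at 151% of the Con mean (log2 fold change 0.43 ± 0.15 (SE), adjusted p = 0.0637). At day 25 it was 2.29, 3.43 and 3.19 FPKM in Con and 2.02, 2.27 and 3.12 FPKM in CR mice, and the groups overlapped (log2 fold change -0.20 ± 0.15 (SE), adjusted p = 0.448). The day 30 call was lost without Con mouse 10 (adjusted p = 0.129), Con mouse 12 (0.186), CR mouse 1 (0.143) or CR mouse 3 (0.173).

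**Figure D2:**
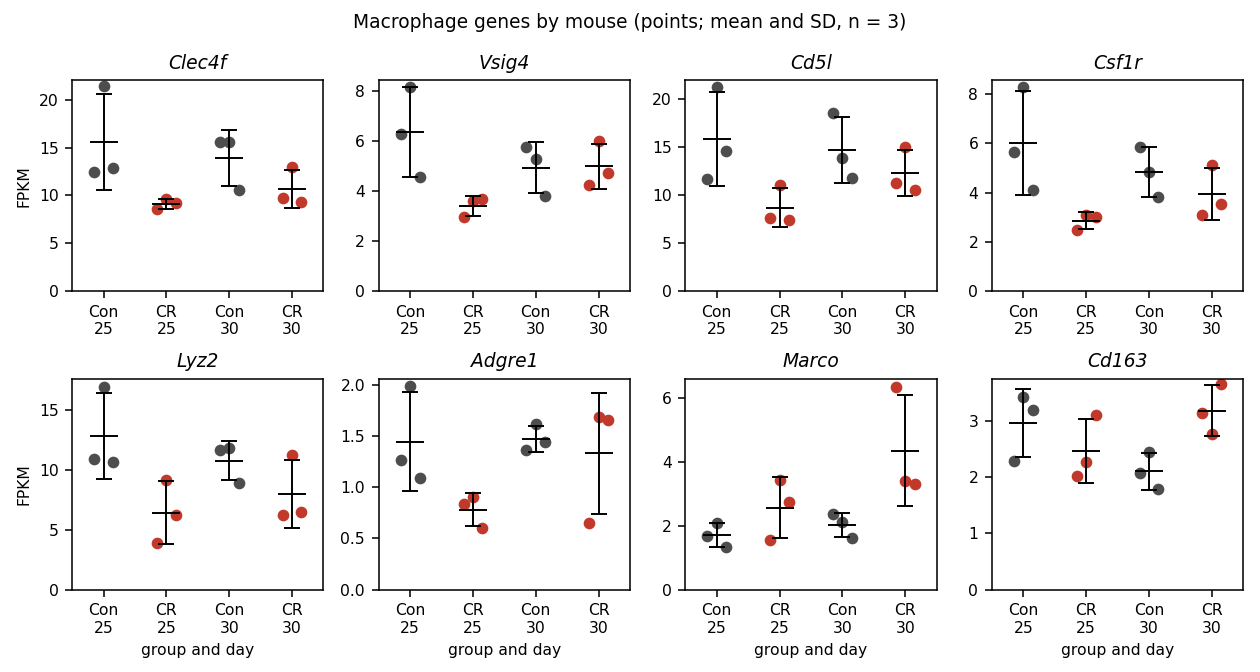
FPKM (y axis, from 0) of 8 macrophage genes in each mouse (points) by diet and day (x axis), with the mean and SD of 3 mice in black. Clec4f, Vsig4, Cd5l, Csf1r and Lyz2 show the 3 CR mice of day 25 below the 3 Con mice, and Marco and Cd163 show the 3 CR mice of day 30 above the 3 Con mice.

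Of the 7 genes of macrophages and other myeloid cells, 5 were tested and 2 fell at day 25. Csf1r, the receptor on which macrophages depend for survival, was 5.63, 8.27 and 4.11 FPKM in Con and 2.46, 3.1 and 3.01 FPKM in CR mice at day 25. Every CR mouse lay below every Con mouse, with the CR mean at 47.6% of the Con mean (log2 fold change -0.82 ± 0.21 (SE), adjusted p = 0.0287). This call held in the same 22 alternatives, but not with a 2-fold minimum. At day 30 Csf1r was 5.83, 4.83 and 3.83 FPKM in Con and 3.11, 5.11 and 3.55 FPKM in CR mice and the groups overlapped (log2 fold change -0.25 ± 0.21 (SE), adjusted p = 0.424). Exons of Hmgxb3 overlap 15.1% of its exon bases, so reads there could belong to either gene.

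Lyz2 (chr10:117277541-117282272, minus strand), the lysozyme of macrophages and neutrophils and the highest gene of this list, was 10.9, 16.9 and 10.6 FPKM in Con and 3.905, 9.18 and 6.198 FPKM in CR mice at day 25. The groups did not overlap, and the CR mean was 50.2% of the Con mean, and this was the largest fall on the log2 scale among the members that passed at that day (log2 fold change -0.93 ± 0.27 (SE), adjusted p = 0.0502). At day 30 it was 11.6, 11.8 and 8.904 FPKM in Con and 6.2, 11.3 and 6.44 FPKM in CR mice, and CR mouse 2 lay among the Con mice (log2 fold change -0.43 ± 0.27 (SE), adjusted p = 0.297). The day 25 adjusted p was 0.149 without Con mouse 2, 0.165 without CR mouse 1 and 0.116 without CR mouse 3. Lyz1 shares 1.97% of the 100-base windows of Lyz2. The other tested genes, Cd68, Ly86 and Ccl6, did not pass at either day, with log2 fold changes from -0.48 to -0.20 at day 25 and from -0.17 to -0.02 at day 30. Ccl6 passed at day 25 with mice paired by number. Cd14 and Itgam were below the filter, at 0.422 to 0.985 FPKM and 0.038 to 0.161 FPKM, and 73.6% of the windows of Itgam are shared with Gm49368.

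In the leukocyte signalling list 4 of 5 genes were tested and 3 fell at day 25. Fcer1g (chr1:171229572-171234349, minus strand), the signalling chain of Fc receptors, was 5.26, 5.6 and 4.83 FPKM in Con and 3.12, 3.902 and 3.51 FPKM in CR mice at day 25. The groups were apart (log2 fold change -0.47 ± 0.12 (SE), adjusted p = 0.0366). The day 25 adjusted p was 0.102 without Con mouse 2 and 0.122 without CR mouse 1. At day 30 Fcer1g was 7.12, 6.05 and 5.66 FPKM in Con and 4.87, 5.69 and 3.82 FPKM in CR mice, where CR mouse 2 lay just above Con mouse 12 (log2 fold change -0.34 ± 0.12 (SE), adjusted p = 0.0845). The day 30 call was lost in 10 of 22 alternatives, among them median-ratio scaling and the removal of Con mouse 10, Con mouse 11, CR mouse 1 or CR mouse 3 (adjusted p up to 0.258).

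Tyrobp (chr7:30413788-30417579, plus strand), the adaptor DAP12 of activating receptors and the highest gene of this list, was 5.83, 13.6 and 7.22 FPKM in Con and 3.04, 4.66 and 4.98 FPKM in CR mice at day 25. CR mice lay below Con mice, and Con mouse 2 stood far above the other 2 Con mice (log2 fold change -0.86 ± 0.28 (SE), adjusted p = 0.0772). The call was lost when any mouse of day 25 except Con mouse 1 was left out, with adjusted p from 0.1096 to 0.218. At day 30 Tyrobp was 9.17, 5.62 and 4.602 FPKM in Con and 4.75, 7.27 and 5.06 FPKM in CR mice, with overlap (log2 fold change -0.13 ± 0.28 (SE), adjusted p = 0.789). Laptm5 (chr4:130913334-130936148, plus strand), a lysosomal protein of blood cells, was 2.66, 4.28 and 3.21 FPKM in Con and 1.88, 2.21 and 1.79 FPKM in CR mice at day 25. Its groups did not overlap, and the call held in the same 22 alternatives, but not with a 2-fold minimum (log2 fold change -0.55 ± 0.14 (SE), adjusted p = 0.0296). At day 30 it was 3.13, 3.24 and 2.38 FPKM in Con and 2.05, 2.71 and 2.19 FPKM in CR mice, with overlap (log2 fold change -0.24 ± 0.14 (SE), adjusted p = 0.267). Coro1a, an actin-binding protein of leukocytes, did not pass (log2 fold change -0.11 at day 25 and -0.30 at day 30), and Ptprc, which encodes CD45, was below the filter at 0.226 to 0.818 FPKM.

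Of the 8 class II pathway genes 5 were tested, of which 1 fell at day 25 and 3 fell at day 30. The median log2 fold change of the 5 was -0.29 at day 25 and -0.82 at day 30. Cd74, the invariant chain and the highest gene of the list, was 38.04, 28.9 and 30.7 FPKM in Con and 18.6, 22.04 and 13.8 FPKM in CR mice at day 30. Every CR mouse lay below every Con mouse, with CR at 55.7% of the Con mean (log2 fold change -0.82 ± 0.25 (SE), adjusted p = 0.0422). At day 25 Cd74 was 16.5, 30.7 and 20.1 FPKM in Con and 16.1, 23.2 and 12.1 FPKM in CR mice, and the groups overlapped (log2 fold change -0.37 ± 0.25 (SE), adjusted p = 0.395). Its adjusted p at day 30 was 0.128 without Con mouse 10 and 0.133 without CR mouse 3.

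H2-Aa (chr17:34282751-34287771, minus strand), the alpha chain of I-A and one of the genes whose promoter is printed above, was 15.8, 11.9 and 12.3 FPKM in Con and 7.14, 9.15 and 5.24 FPKM in CR mice at day 30. The groups were apart, with CR at 53.8% of the Con mean (log2 fold change -0.83 ± 0.26 (SE), adjusted p = 0.0468). At day 25 it was 5.58, 10.2 and 8.04 FPKM in Con and 6.58, 10.9 and 4.96 FPKM in CR mice, and CR mouse 2 was the highest of the 6 (log2 fold change -0.10 ± 0.26 (SE), adjusted p = 0.848). Without Con mouse 10, CR mouse 1 or CR mouse 3 its day 30 adjusted p was 0.139, 0.114 and 0.145, in that order. H2-Ab1 (chr17:34263227-34269418, plus strand), the beta chain of I-A, was 14.5, 10.96 and 9.88 FPKM in Con and 5.72, 8.201 and 4.41 FPKM in CR mice at day 30. Every CR mouse lay below every Con mouse (log2 fold change -0.87 ± 0.23 (SE), adjusted p = 0.0228), and this call held in all 22 alternatives without a fold minimum, but not at 2-fold. At day 25 H2-Ab1 was 6.83, 10.4 and 7.56 FPKM in Con and 5.69, 9.06 and 5.25 FPKM in CR mice, with overlap (log2 fold change -0.29 ± 0.23 (SE), adjusted p = 0.474).

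H2-Eb1, the beta chain of I-E, was 7.67, 5.504 and 5.21 FPKM in Con and 4.16, 4.74 and 2.94 FPKM in CR mice at day 30. Its groups were apart, but the difference did not pass (log2 fold change -0.53 ± 0.23 (SE), adjusted p = 0.142). In C57BL/6 mice I-E is not displayed for want of its alpha chain. Ctss (chr3:95526786-95556405, plus strand), cathepsin S, which trims the invariant chain, was 8.39, 11.3 and 6.78 FPKM in Con and 4.94, 5.704 and 5.61 FPKM in CR mice at day 25. The groups did not overlap (log2 fold change -0.59 ± 0.16 (SE), adjusted p = 0.0347). At day 30 it was 10.3, 9.43 and 9.71 FPKM in Con and 6.21, 9.01 and 6.96 FPKM in CR mice, again without overlap, and did not pass (log2 fold change -0.38 ± 0.16 (SE), adjusted p = 0.116). Its day 25 adjusted p was 0.1001 without Con mouse 2 and 0.1097 without CR mouse 1.

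Ciita, the class II coactivator, was 0.063, 0.074 and 0.081 FPKM in Con and 0.083, 0.049 and 0.048 FPKM in CR mice at day 25, and 0.304, 0.082 and 0.224 FPKM in Con and 0.142, 0.08 and 0.017 FPKM in CR mice at day 30. It rested on 2 to 32 reads per library, and without a filter on low FPKM it did not pass at day 25 (adjusted p = 0.946) or day 30 (adjusted p = 0.154). H2-DMa and H2-DMb1, which load peptides onto class II, were also below the filter, at 0.192 to 1.19 FPKM and 0.372 to 1.53 FPKM.

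All 8 class I pathway genes were tested, of which 2 fell at day 25 and 3 at day 30. Tap1 (chr17:34187556-34197225, plus strand), a subunit of the peptide pump, was 4.11, 5.59 and 4.59 FPKM in Con and 2.99, 3.37 and 2.39 FPKM in CR mice at day 25. Its groups were apart (log2 fold change -0.56 ± 0.16 (SE), adjusted p = 0.0506). At day 30 it was 8.21, 5.396 and 7.82 FPKM in Con and 3.401, 3.22 and 2.32 FPKM in CR mice. The highest CR mouse was below the lowest Con mouse, and the CR mean was 41.7% of the Con mean (log2 fold change -1.02 ± 0.16 (SE), adjusted p = 0.00165), a call kept in all 22 alternatives and with a 2-fold minimum. At day 25 the adjusted p of Tap1 was 0.144 without Con mouse 2, 0.102 without Con mouse 3, 0.107 without CR mouse 1 and 0.175 without CR mouse 3. Psmb9 overlaps Tap1 and shares 3.96% of its 100-base windows.

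Nlrc5 (chr8:94472763-94527272, plus strand), the class I coactivator, was 3.42, 4.76 and 4.501 FPKM in Con and 2.601, 3.17 and 2.67 FPKM in CR mice at day 25. The groups were apart (log2 fold change -0.45 ± 0.16 (SE), adjusted p = 0.0963), but the call was lost in 12 of 22 alternatives, among them the pairing of mice by number (adjusted p = 0.117) and the removal of any mouse of day 25 other than Con mouse 1 (adjusted p up to 0.227). At day 30 Nlrc5 was 4.901, 3.897 and 5.64 FPKM in Con and 2.91, 3.48 and 2.03 FPKM in CR mice, without overlap, and the call held in all 22 alternatives without a fold minimum, but not at 2-fold (log2 fold change -0.62 ± 0.16 (SE), adjusted p = 0.02004).

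B2m (chr2:122147687-122153082, plus strand), whose promoter is printed above, was 1444, 1617 and 1646 FPKM in Con and 1063, 1199 and 1151 FPKM in CR mice at day 30. Every CR mouse lay below every Con mouse, with CR at 72.5% of the Con mean (log2 fold change -0.46 ± 0.11 (SE), adjusted p = 0.0157), a call kept in all 22 alternatives without a fold minimum, but not at 2-fold. At day 25 B2m was 1465, 1165 and 1299 FPKM in Con and 1090.2, 1150.5 and 1095 FPKM in CR mice, which were apart by a narrow gap and did not pass (log2 fold change -0.23 ± 0.11 (SE), adjusted p = 0.225).

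The heavy chains that pair with B2m did not pass at either day. H2-K1 was 466, 397 and 426 FPKM in Con and 451, 426 and 378 FPKM in CR mice at day 30, with full overlap. Its log2 fold change was -0.01 at day 25 (95% interval -0.29 to 0.26) and -0.04 at day 30 (-0.32 to 0.24). H2-D1 gave 0.03 at day 25 (-0.30 to 0.35) and 0.05 at day 30 (-0.28 to 0.37). H2-Q10 gave 0.26 at day 25 (95% interval from just below 0 to 0.52), where it passed as higher under median-ratio scaling, and -0.04 at day 30 (-0.30 to 0.22). Between 0% and 4.64% of the 100-base windows of these 3 genes occur in another gene, so reads of close relatives could be shared at those places. Tap2, the partner of Tap1, gave -0.14 and -0.21, and Tapbp, which bridges TAP and class I, 0.13 and 0.03. Other genes overlap 18.5% of the exon bases of Tap2 and 29.0% of those of Tapbp.

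**Figure D3:**
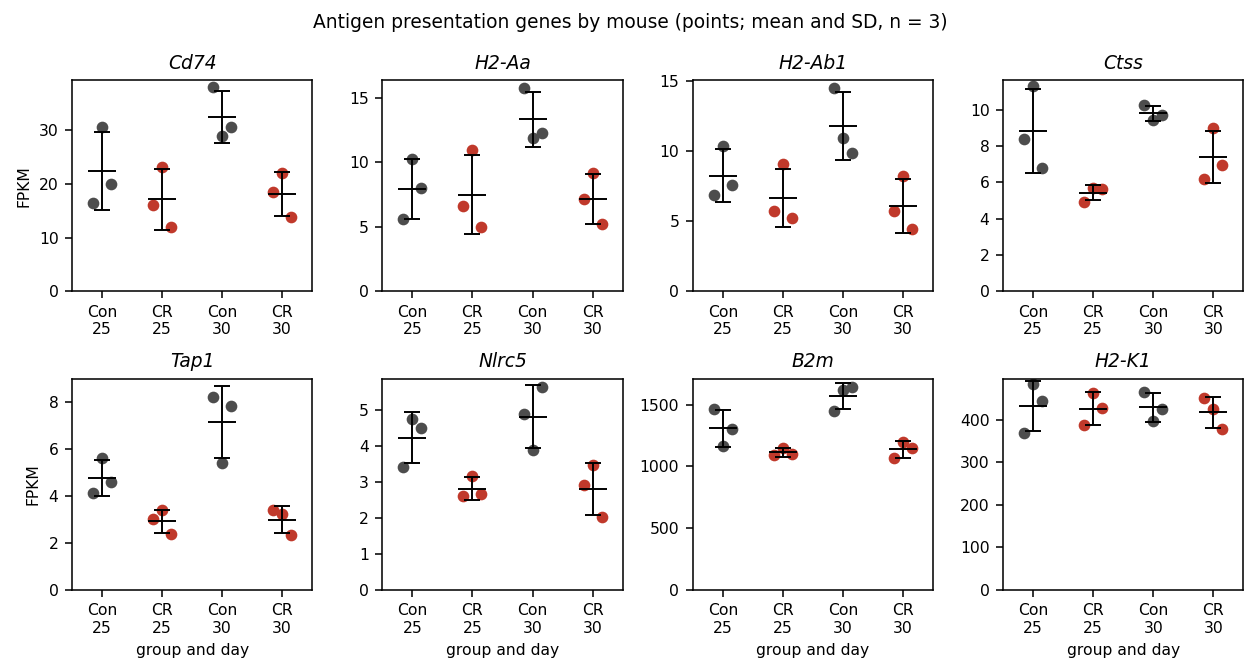
FPKM (y axis, from 0) of 8 antigen presentation genes in each mouse (points) by diet and day (x axis), with the mean and SD of 3 mice in black. At day 30 the CR mice lie below the Con mice in Cd74, H2-Aa, H2-Ab1, Ctss, Tap1, Nlrc5 and B2m, while the groups of H2-K1 overlap at both days.

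None of the 5 lymphocyte genes met the filter. Ccl5, a chemokine of T and NK cells and the highest of them, was 0.207, 0.931 and 0.677 FPKM in Con and 0.448, 0.483 and 0.189 FPKM in CR mice at day 25, and 0.65, 0.535 and 2.02 FPKM in Con and 0.815, 0.88 and 0.814 FPKM in CR mice at day 30. Cd3e, Cd8a and Nkg7 ranged from 0 to 0.573 FPKM, which is at most 12 reads. Cd79b, a chain of the B cell receptor, was 0.741, 0.603 and 0.607 FPKM in Con and 0.322, 0.271 and 0.042 FPKM in CR mice at day 25. At day 30 it was 0.957, 0.48 and 0.492 FPKM in Con and 0.11, 0.394 and 0.219 FPKM in CR mice. Its CR mice lay below its Con mice at both days, as in 12.2% of all tested genes, on 1 to 23 reads per library. When no filter was set it passed as lower at both days. In that setting 899 of 18362 genes passed as lower at day 25 and 1629 at day 30.

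Some libraries were high or low across most members. At day 25 Con mouse 2 was the highest of its group in 26 of the 29 tested members, all 7 Kupffer cell genes among them. CR mouse 2 was the highest of its group in 23 members at day 25, Con mouse 10 in 17 and CR mouse 2 in 22 at day 30. These 4 libraries also had the largest share of reads on exons in their groups, at 83.6%, 84.3%, 80.6% and 82.2%. By group, the share ran from 78.1% to 83.6% in Con and 80.9% to 84.3% in CR mice at day 25, and from 78.2% to 80.6% in Con and 80.5% to 82.2% in CR mice at day 30. Its part in the results was not tested.

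**Figure D4:**
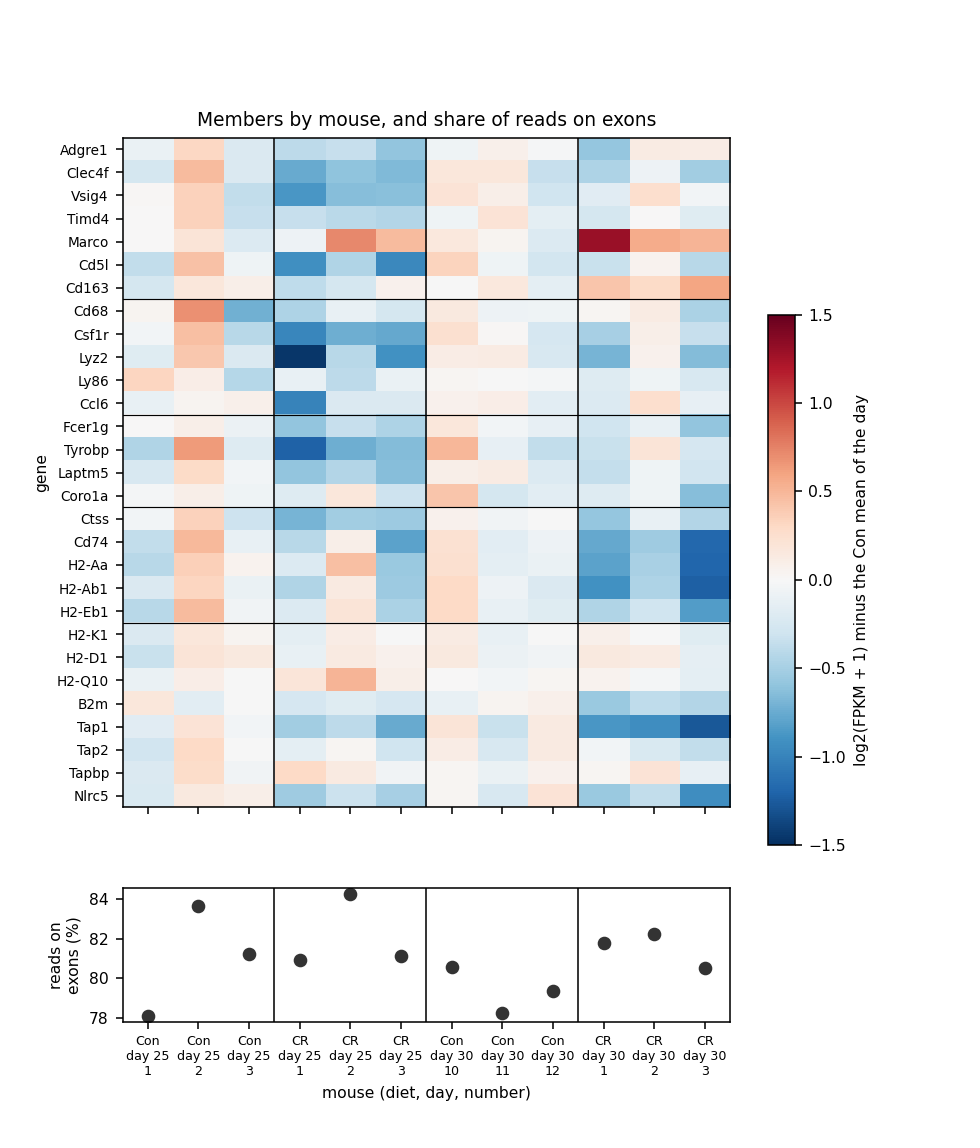
Upper panel, log2(FPKM + 1) of the 29 tested members (rows) in each mouse (columns, by diet, day and number), less the mean of the Con mice of the same day, with red above and blue below. Lower panel, the share of reads on exons in each library (y axis, which does not start at 0). Con mouse 2 of day 25 is red in most rows and has 83.6% of its reads on exons.

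Some members moved together from mouse to mouse. After each group's mean was removed, the 21 pairs of Kupffer cell genes had a median Pearson r of 0.36 over the 12 mice (-0.37 to 0.87), and the 56 pairs of Kupffer cell with class I genes 0.11. The 6 pairs among Cd74, H2-Aa, H2-Ab1 and H2-Eb1 had a median r of 0.94, where the genes of a mouse share its library and depth. The 15 pairs among Clec4f, Vsig4, Cd5l, Csf1r, Timd4 and Adgre1, a set that leaves out Marco and Cd163 and was chosen after the values were seen, had a median r of 0.74, and the 24 pairs between these sets 0.53. Marco had a median r of 0.28 with the macrophage set and Cd163 one of 0.15. Tap1 and Nlrc5 gave 0.82, and H2-K1 and H2-D1 0.95. All pairs of tested genes had a median of 0.05, and these values are given as descriptions.

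Other genes of the same pathways were read from lists. Of 35 other macrophage genes 25 were tested, of which 7 fell and 1 rose at day 25, and 2 fell and 1 rose at day 30. Over all tested genes 9.34% fell at day 25 and 16.4% at day 30, so that the share of this list that fell was above the background at day 25 and below it at day 30. Folr2 (log2 fold change -0.77, adjusted p = 0.0514) and the complement gene C1qb (-0.74, adjusted p = 0.0413) fell at day 25. At day 30 the iron exporter gene Slc40a1 (-0.37, adjusted p = 0.0771) and Spi1, which encodes PU.1 (-0.39, adjusted p = 0.07402), fell, and Cd207 rose (0.43, adjusted p = 0.0899).

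Of 12 other class II genes 5 were tested, of which 2 fell and 1 rose at day 25 and 1 fell at day 30. Rfx5, the subunit of the complex named above, was 3.89, 3.66 and 3.31 FPKM in Con and 1.47, 1.98 and 1.48 FPKM in CR mice at day 25, and 3.202, 2.92 and 3.1 FPKM in Con and 1.16, 1.698 and 1.34 FPKM in CR mice at day 30. It fell at both days (log2 fold change -0.81, adjusted p = 0.00138, and -0.77, adjusted p = 0.0008599). Ifi30, a lysosomal thiol reductase, fell at day 25 (-0.51, adjusted p = 0.0149), and Rfxap, another subunit of the complex, rose (0.33, adjusted p = 0.0962). Of 23 other class I genes 20 were tested, of which 2 fell at day 25 and 3 at day 30, with 0 higher, shares close to the 9.34% and 16.4% of all tested genes that fell. Irf1, an interferon-responsive transcription factor gene, fell at day 25 (-0.70, adjusted p = 0.0274) and day 30 (-0.49, adjusted p = 0.0739). The immunoproteasome gene Psmb9 fell at day 30 (-0.67, adjusted p = 0.0606), and Calr, which encodes the chaperone calreticulin, fell at day 25 (-0.46, adjusted p = 0.0988). Only 2 of 24 other T, NK and B cell genes were tested. Cd247 fell at both days (-0.55, adjusted p = 0.0112, and -0.57, adjusted p = 0.00577). The other tested gene had a positive sign at both days and did not pass at either.

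Markers of other liver cells were read beside these results. Over all tested genes 5.60% rose at day 25 and 8.33% at day 30. The summed FPKM of the 7 Kupffer cell genes was 36.7 to 59.9 in Con and 24.1 to 31.4 in CR mice at day 25, and 31.9 to 46.6 in Con and 33.96 to 42.9 in CR mice at day 30. That of the 8 class II genes was 41.03 to 70.6 in Con and 31.3 to 54.8 in CR mice at day 25, and 68.9 to 89.3 in Con and 34.7 to 54.8 in CR mice at day 30. Of 8 sinusoidal endothelial markers, all tested, 1 rose at day 25 and 5 at day 30, while 2 had a negative sign at day 25. Their sums were 44.8 to 66.5 in Con and 57.8 to 69.03 in CR mice at day 25. At day 30 they were 43.7 to 48.9 in Con and 58.4 to 67.4 in CR mice. Of 8 stellate cell markers 7 were tested, of which 1 rose at day 25 and 4 at day 30, with sums of 96.4 to 108 in Con and 116 to 138 in CR mice at day 25, and 78.1 to 99.8 in Con and 123 to 141 in CR mice at day 30. Of 7 hepatocyte markers 1 rose at day 25 and 5 at day 30, while 1 had a negative sign at each day. Over both days 4 rose and 1 fell, against 14.5% and 26.1% of all tested genes. Their sums, in which Alb is the highest gene, were 49885 to 56421 in Con and 56075 to 60736 in CR mice at day 25. At day 30 they were 41089 to 51248 in Con and 60053 to 72709.8 in CR mice. The part of these cell types in the results was not tested.

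Blood cell markers were low or varied between mice. None of 8 neutrophil markers and none of 9 dendritic cell markers met the filter, with sums of 0.102 to 1.81 FPKM and 1.99 to 2.93 FPKM over the 12 libraries. Ly6g, which defines neutrophils, was listed at 0 in all 12. The neutrophil sums were 0.678 to 1.3 in Con and 0.102 to 0.34 in CR mice at day 25. At day 30 they were 0.655 to 1.81 in Con and 0.174 to 1.09 in CR mice. CR libraries were thus below all Con libraries at day 25, as in 18% of all tested genes taken singly, and overlapped them at day 30. Of 6 erythroid markers 5 were tested, with a median log2 fold change of -0.06 at day 25 and 0.76 at day 30, when 1 of the 5 had a negative sign. That 1, Alas2, of haem synthesis, fell at both days (log2 fold change -0.69, adjusted p = 0.0667, and -1.49, adjusted p = 0.000974). Of 5 cholangiocyte markers 2 were tested and 0 passed at either day.

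Between days within a diet, 0 members passed. In Con mice the smallest adjusted p of a member was 0.556 and 0.00% of all tested genes passed, and at an unadjusted p under 0.05 there were 6 members, Cd163, Cd74, H2-Aa, H2-Q10, B2m and Tap1, against 7.22% of all tested genes. Cd74, H2-Aa, B2m and Tap1 are among the members that fell under CR at day 30, and the Con mice of day 30 enter both comparisons. From day 25 to day 30 the Con log2 fold change was 0.55 for Cd74, 0.70 for H2-Aa and 0.49 for Tap1, and in CR mice it was 0.10, -0.02 and 0.02. In CR mice the smallest adjusted p of a member was 0.403, against 0.321% of all tested genes that passed, and 4 members had an unadjusted p under 0.05, Vsig4, Marco, Fcer1g and Ctss, against 8.66%.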

How the data were processed

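Liver RNA of 12 mice in 4 groups of 3 was sequenced, and the authors mapped paired-end reads to mm10 with BWA. The submitters' processing notes also name CASAVA 1.8.2 and FastQC. The deposited values are FPKM, which per the file headers were made with HOMER from reads on exons without scaling between libraries. Because whole reads were counted, depth was recovered from the steps of low values (100% of 1500 low values per library were whole within 0.1 reads). FPKM are not counts, so limma 3.58.1 in R 4.3.3 was fitted to log2(FPKM + 1), as 1 model of 4 groups with a trend on expression. CR over both days had day as a covariate. All tests are 2-sided, and the model was tested on simulated data.

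The members and lists were chosen with earlier results of these data known. Values per mouse are given for members that passed in any of the 4 comparisons, for the highest member of each role and for Adgre1, Clec4f, Ciita and Nlrc5. Of other genes, up to 3 per list and comparison that passed are named, and some items under this rule are not reported here. H2-K1, H2-Eb1, Cd79b and Alas2 were singled out after their values were seen. Same-numbered mice deviated together at day 25 (mean correlation 0.26, from 0.106 to 0.368, over 3 pairs), so pairing by number is given there where it changed a call. With each group's mean removed, the mean for different numbers (-0.131) follows largely from that for the same numbers and is no separate contrast. Whether the numbers mark true pairs was not tested. Comparisons between days within a diet were added after seeing the data. Alternatives covered the pseudocount, the filter, scaling, moderation, thresholds, pairing, voom on recovered reads and leaving out each mouse. Shared sequence was counted in GENCODE transcripts as exact 100-base windows. Protein sequences were not used here.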

Additional observations from a re-analysis of the deposited data

How the results depend on the processing

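No member's call reversed under any alternative run. The median of all tested genes did change sign at day 25, from -0.04 to 0.01 on the log2 scale, under median-ratio scaling. Over both days it went from -0.05 to 0.005 under the same scaling. Of the tested members 11 passed at day 25, 9 at day 30 and 16 over both days. With a 2-fold minimum these counts were 0, 1 and 0, and without a filter on low FPKM 6 members passed at day 25. At an adjusted p under 0.05 there were 6 at day 25. Leaving out each mouse gave 3 to 11 members at day 25, 5 to 11 at day 30 and 13 to 18 over both days. Pseudocount, scaling, moderation and voom gave 10 to 11, 8 to 11 and 13 to 19. The replicate block gave 13 at day 25, 12 at day 30 and 18 over both days. At day 30 same-numbered mice shared only a column number (mean correlation 0.114, from 0.0456 to 0.181). The cause of these shifts was not tested.

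Over all tested genes, 1582 passed at day 25, 2619 at day 30, 4304 over both days and 1 in the difference between days. With a 2-fold minimum the first 3 were 157, 234 and 176. At an adjusted p under 0.05 there were 969 at day 25, 1740 at day 30 and 0 in the difference. Leaving out each mouse gave 893 to 1589, 1497 to 2680, 3698 to 4198 and 0 to 5. For the difference, a pseudocount of 0.1 gave 3, quantile normalization 0, voom 0 and the replicate block 8, and 0 members passed under every alternative run. TPM moved the median of all genes at day 30 to -0.11 on the log2 scale. With 3 mice per group, members below 1 FPKM rest on few reads.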
